A study of Mus musculus with 8 samples.

Results

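The cytochrome P450 genes of the mouse were described in lists of lamina associated domains (LADs), the stretches of chromosome that lie against the nuclear lamina. Members were taken as protein-coding genes whose symbol is Cyp followed by a number, a letter and a number, such as Cyp2c29. This gave 90 of the 22367 protein-coding genes annotated on mm9. The lists come from LaminB1-DamID in 3T3-L1, an established mouse fibroblast line that turns into adipocytes in culture. DamID fuses the protein to the bacterial methylase Dam, which marks the sequence GATC in nearby DNA, and free Dam gives the control. The 4 conditions were untreated preadipocytes (undifferentiated, day 0), adipocytes at day 9 with control non-target shRNA, adipocytes at day 9 with Tmem120a shRNA, and adipocytes at day 9 with Tmem120a/b shRNA. Tmem120a is a nuclear envelope transmembrane protein and Tmem120b is its paralog, and the shRNAs were carried by stable lines. The Tmem120a shRNA is called the Tmem120a knockdown and the Tmem120a/b shRNA the double knockdown where both are discussed. All adipocytes had received insulin, dexamethasone, IBMX and rosiglitazone, and all 8 libraries came from cells transduced with a Dam or LaminB1-Dam lentivirus.

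Each condition had 1 LaminB1-Dam and 1 Dam library, so the values have no spread between replicates and no difference between lists was tested. The lists give positions with no score or depth. The precision of a border is therefore unknown, as is the strength of any LAD. Differentiation and the presence of a control shRNA cannot be told apart between preadipocytes and adipocytes. By the paper's Results, preadipocytes were also collected before confluency and sooner after transduction, which cannot be separated from differentiation either. The lists hold no expression values, so neither the depletion of Tmem120a and Tmem120b nor the cell type could be checked against marker genes.

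Cytochrome P450s are heme enzymes that insert oxygen into small hydrophobic molecules, most of them anchored in the endoplasmic reticulum and fed with electrons by P450 reductase. The Cyp1, Cyp2 and Cyp3 families act largely on drugs and other foreign compounds and are best known in liver. Cyp4 enzymes hydroxylate fatty acids, Cyp2j enzymes and Cyp2c44 make epoxides of arachidonic acid, and smaller families make or degrade steroids, bile acids, vitamin D and retinoic acid. Many of the genes arose by tandem duplication and sit in clusters.

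The first question was how many P450 genes lay in LADs in each condition. In preadipocytes 54 of the 90 gene bodies met a LAD (60%, against 26.2% of all protein-coding genes). The adipocyte list held 48 (53.3%, against 23.3%), the Tmem120a shRNA list 53 (58.9%, against 27.5%) and the Tmem120a/b shRNA list 52 (57.8%, against 29.5%). P450 genes thus met LADs more often than protein-coding genes at large in all 4 lists. These genes are not independent of each other, since the 54 genes of the preadipocyte list shared 15 LADs and 14 of them lay in the same LAD. The numbers of LADs that P450 genes met were 16 in adipocytes, 22 with Tmem120a shRNA and 26 with Tmem120a/b shRNA.

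Start sites gave a like picture. The start site of 51 P450 genes lay in a LAD in preadipocytes (56.7%, against 23.3% of all genes) and that of 45 in adipocytes (50%, against 21.2%). With Tmem120a shRNA there were 47 (52.2%, against 22.6%) and with Tmem120a/b shRNA 48 (53.3%, against 23.8%). By length, 68.1%, 67.6%, 64.1% and 62.6% of the summed P450 gene bodies lay in LADs in the 4 lists in that order, which is kept for all runs of 4 values, against 29.6%, 28.9%, 30.1% and 31.1% of all protein-coding gene bodies. The order of the 4 lists by number of P450 genes depended on short LADs. With LADs of at least 100 kb alone, 53, 46, 43 and 41 gene bodies met a LAD. The share of all genes at this length is not given, so this order is not set against that of genes at large.

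**Figure D1:**
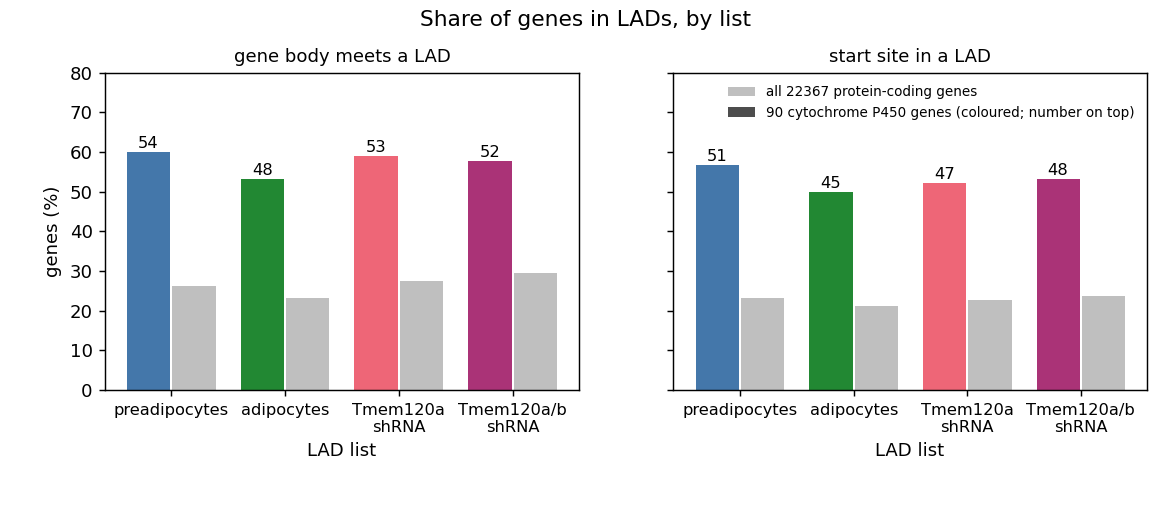
Bars give the percent of genes whose body meets a LAD (left) or whose start site lies in a LAD (right) in each list, coloured for the 90 P450 genes with their number on top and grey for all 22367 protein-coding genes. P450 bars stand between 50% and 60%, and grey bars between 21.2% and 29.5%.

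The same state in all 4 lists, counting any overlap as in a LAD, held for 76 P450 genes (84.4%, against 83.1% of all genes), a share close to that of genes at large. A LAD was met in all 4 lists by 45 genes (50%, against 19.3% of all genes), and 35 of them lay in LADs over their whole body in every list (38.9%, against 14.3%). No list put 31 genes in a LAD (34.4%, against 63.7%). The other 14 genes met a LAD in some lists only. They are described by cluster and by function.

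**Figure D2:**
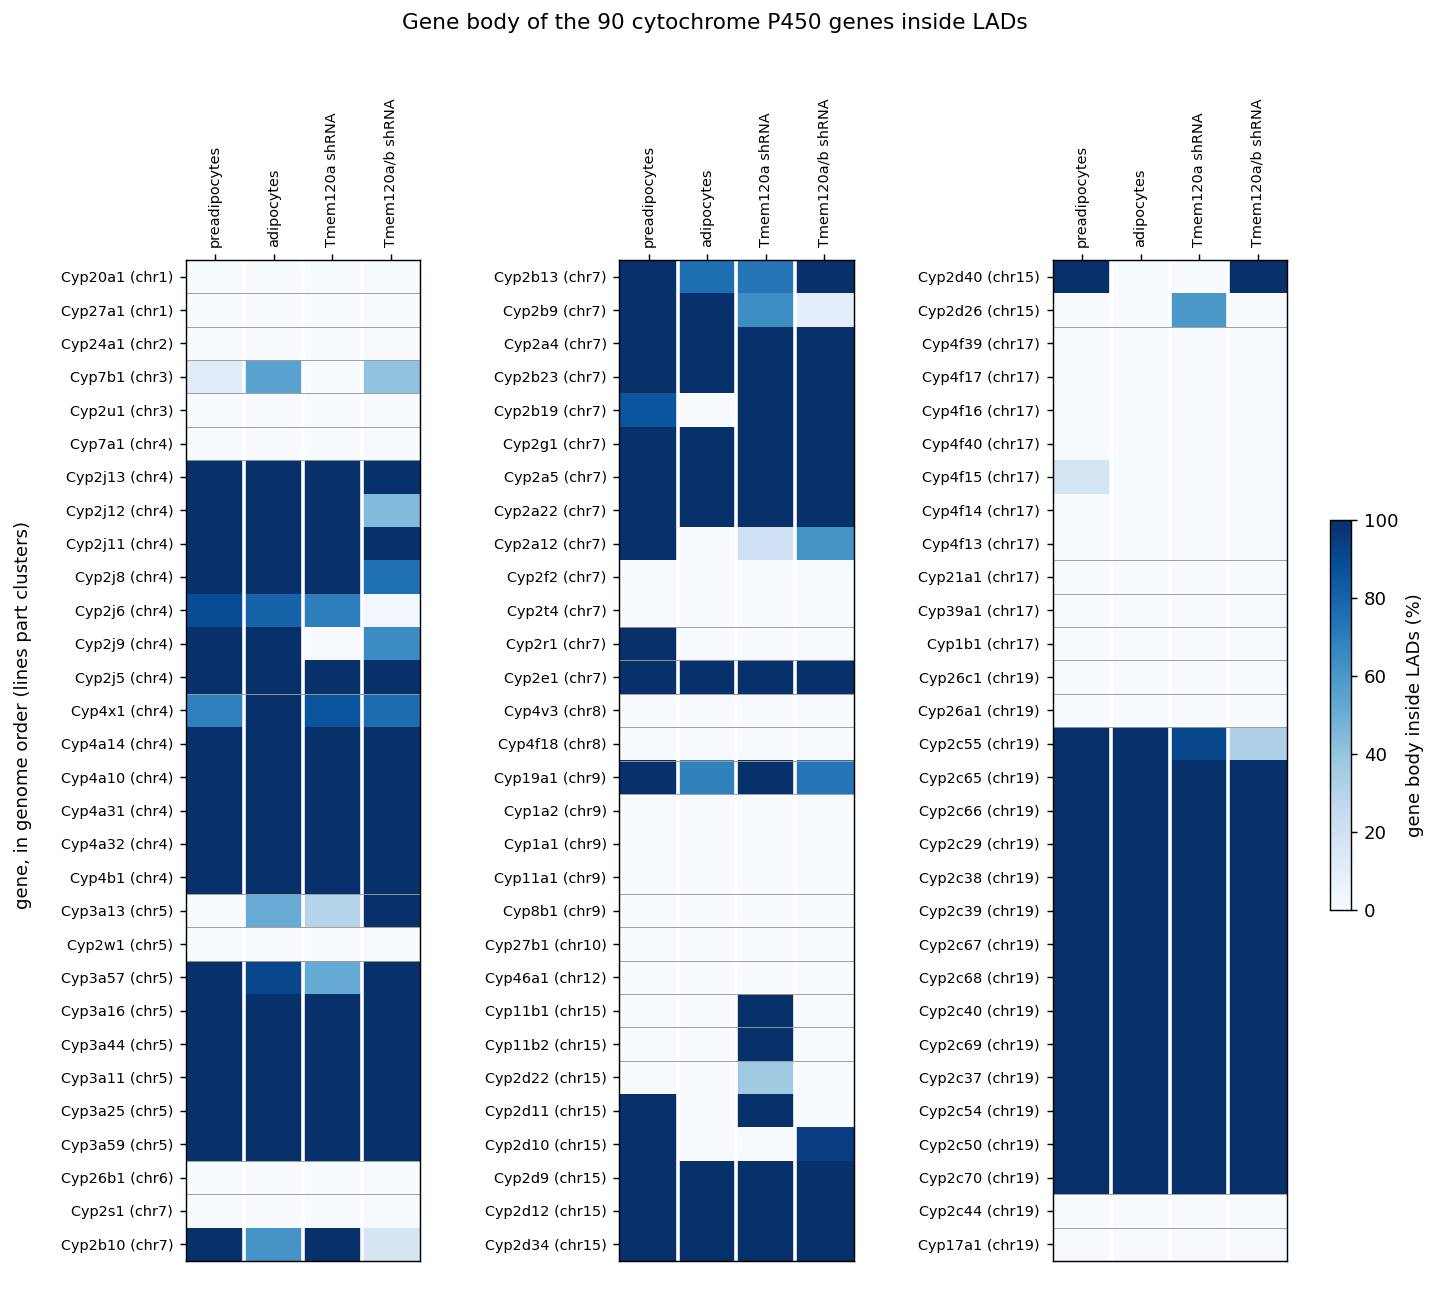
Each row is a P450 gene in genome order and each column a list, with the shade giving the percent of the gene body inside LADs from 0 to 100. Blocks of dark rows are the Cyp2j, Cyp4a, Cyp3a, Cyp2a/b and Cyp2c clusters, and rows of mixed shade are genes whose share differed between lists.

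Position in a cluster went with LAD state. Under a rule of at most 500 kb between neighbours, 64 genes fell into 8 clusters of 3 or more, and 26 genes lay outside. Of the clustered genes 50 met a LAD in preadipocytes, 44 in adipocytes, 48 with Tmem120a shRNA and 48 with Tmem120a/b shRNA. Of the 26 others 4, 4, 5 and 4 did. Genes in LADs in all 4 lists numbered 43 of 64 in clusters and 2 of 26 outside (67.2% and 7.69%, against 19.3% of all genes), and genes in no LAD 12 and 19 (18.8% and 73.1%, against 63.7%).

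The Cyp2c cluster of chromosome 19, whose enzymes oxidise drugs and arachidonic acid, had the largest share of its span in LADs of the 8 clusters in all 4 lists, level with the Cyp4a cluster in adipocytes. It holds 14 genes from Cyp2c55 to Cyp2c70 in 1180 kb (chr19:39081509-40261823), with no other protein-coding gene between them. A LAD of 1214 kb covered all of it in preadipocytes, from 6.67 kb before Cyp2c55 to 26.9 kb past Cyp2c70, and a LAD of 1225 kb did so in adipocytes. The Tmem120a shRNA list had a LAD of 1182 kb that began 3.10 kb inside Cyp2c55 and covered 99.7% of the span. With Tmem120a/b shRNA 96.7% was covered, with a gap of 38.6 kb that began in Cyp2c55 and ended before Cyp2c65. Cyp2c55 was the only gene of the cluster that lay partly outside, with 100%, 100%, 91.3% and 32.6% of its body in LADs. With gaps under 50 kb closed, 100% of the span was covered with Tmem120a/b shRNA, Cyp2c55 included. The other 13 genes lay wholly in LADs in every list, and the start site of Cyp2c67 was the deepest of all P450 genes, at 565 kb from the nearest border in preadipocytes and 543 kb with Tmem120a shRNA.

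The Cyp3a cluster of chromosome 5 (chr5:146106148-146924861) holds 6 genes from Cyp3a57 to Cyp3a59, among them Cyp3a11, a main drug-oxidising P450 of mouse liver. LADs covered 93.9%, 93.4%, 90.7% and 93.2% of its 819 kb in the 4 lists, in the order preadipocytes, adipocytes, Tmem120a shRNA and Tmem120a/b shRNA. A break of 50 kb stood at the same position in every list and consisted of undetermined bases for 100% of its length, so it is a gap of the assembly and not a border of a LAD. It makes up 6.11% of the span, and the distances of Cyp3a44 (144 kb) and Cyp3a11 (219 kb) to a border, alike in the 4 lists, are distances to that gap. Only Cyp3a57, at the edge, varied: 100%, 91.1%, 51.8% and 100% of its body lay in LADs, and its start site lay 21.8 kb outside with Tmem120a shRNA. The other 5 genes were wholly inside in every list.

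The Cyp2j cluster of chromosome 4 (chr4:95694225-96330845) encodes 7 of the arachidonic acid epoxygenases. Its 637 kb were covered to 97.0%, 98.8%, 89.8% and 84.7%, in 2, 2, 3 and 5 LADs. The gaps with Tmem120a/b shRNA were all under 50 kb, and with such gaps closed coverage was 100%, 100%, 91.8% and 100%. Cyp2j13, Cyp2j11 and Cyp2j5 lay wholly in LADs throughout. Cyp2j9 had 100% of its body in LADs in preadipocytes and in adipocytes, none with Tmem120a shRNA, where its start site lay 2.88 kb outside a border, and 64.8% with Tmem120a/b shRNA (100% with gaps under 50 kb closed). Its neighbour Cyp2j6 had 88.8%, 80.1%, 69.6% and 2.36%. With Tmem120a/b shRNA Cyp2j12 had 44.2% and Cyp2j8 75.2% of their bodies in LADs, against 100% in the other lists.

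Cyp4x1, 4 Cyp4a genes and Cyp4b1 form a cluster of 541 kb on the same chromosome (chr4:114778928-115320322), in which Cyp4a enzymes carry out the omega-hydroxylation of fatty acids and are classical targets of the fatty acid receptor Ppara. Coverage was 98.4%, 100%, 98.0% and 91.1%. Cyp4a14, Cyp4a10, Cyp4a31, Cyp4a32 and Cyp4b1 lay wholly in LADs in all 4 lists. Cyp4x1, at the left end, was the gene whose share varied, with 68.9%, 100%, 86.6% and 76.9% of its body in LADs. Its value with Tmem120a/b shRNA was 0 with LADs of at least 100 kb, and with gaps under 50 kb closed it had 100% in preadipocytes as in adipocytes. The gaps of 7.17 kb with Tmem120a shRNA and of 6.31 and 35.7 kb with Tmem120a/b shRNA lay between Cyp4x1 and Cyp4a14.

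**Figure D3:**
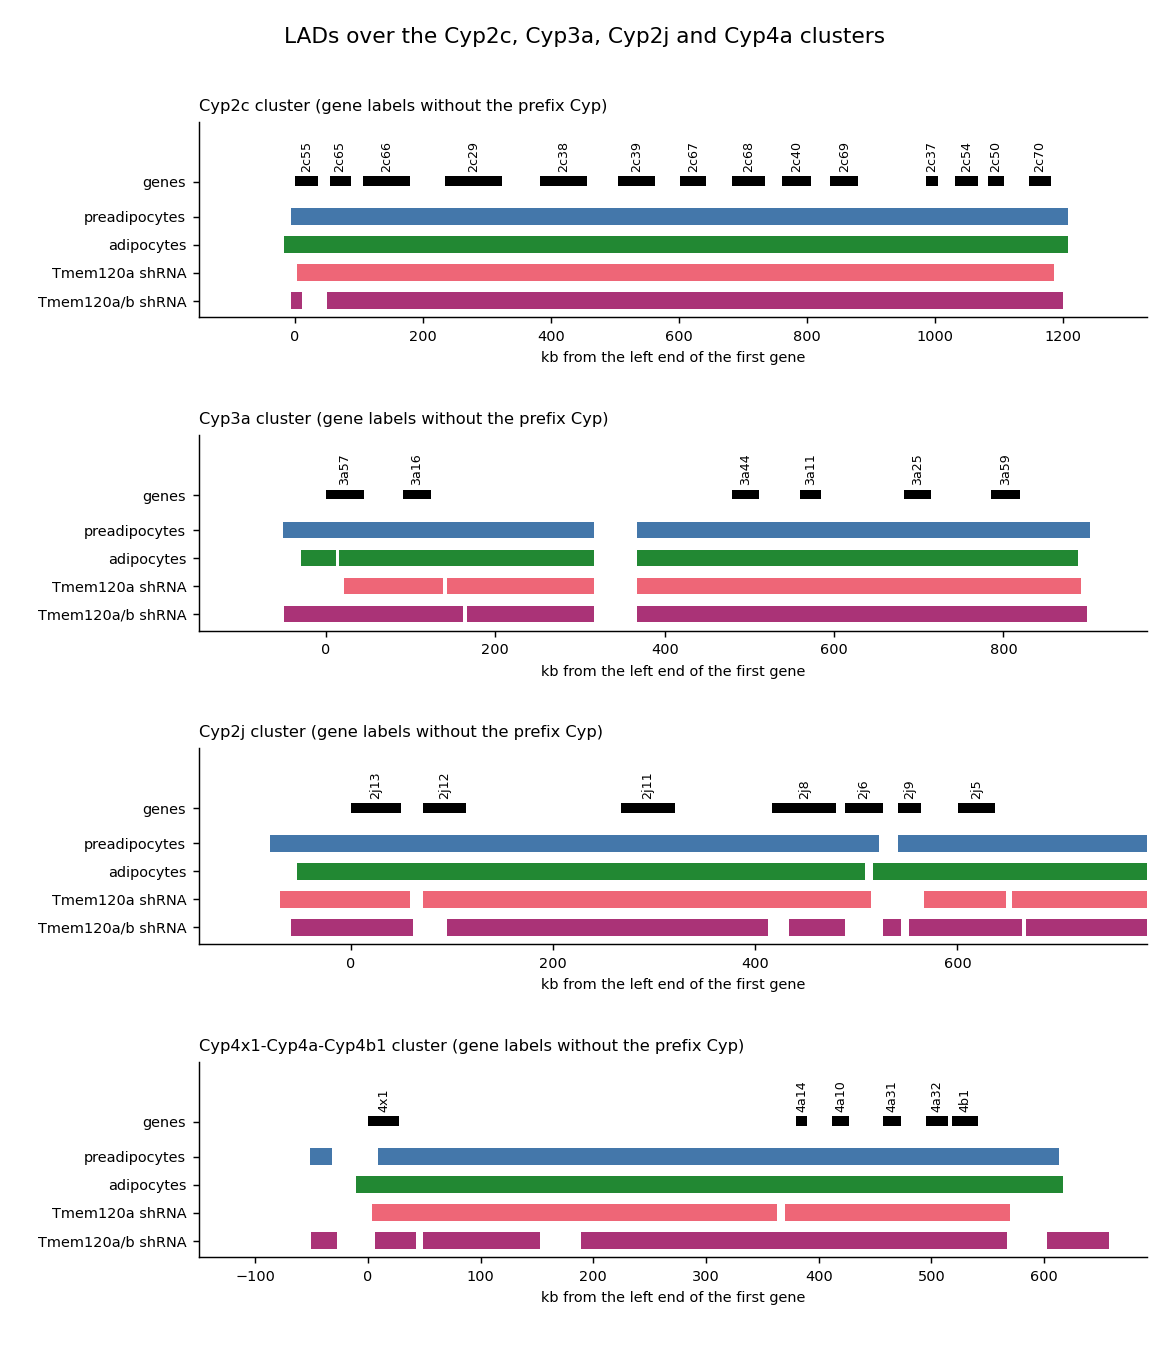
Coloured bars are LADs of the 4 lists and black bars are genes, along the distance in kb from the left end of the first gene of each of 4 clusters. LADs run through the Cyp2c cluster with a break with Tmem120a/b shRNA at Cyp2c55, and the common break of 50 kb in the Cyp3a cluster is the assembly gap.

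On chromosome 7 the Cyp2a, Cyp2b, Cyp2f, Cyp2g, Cyp2s and Cyp2t genes form a cluster of 13 genes over 1356 kb (chr7:26587494-27943687), from Cyp2s1 to Cyp2t4, interspersed with 8 other genes that include Nlrp and vomeronasal receptor genes. LADs covered 86.9% of it in preadipocytes, 74.8% in adipocytes, 77.5% with Tmem120a shRNA and 77.3% with Tmem120a/b shRNA. They numbered 2, 3, 8 and 6. The outer genes Cyp2s1, Cyp2f2, which is known from lung, and Cyp2t4 lay in no LAD in any list. Cyp2a4, Cyp2b23, Cyp2g1, Cyp2a5 and Cyp2a22, in the interior, lay wholly in LADs in every list.

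The remaining 5 genes of this cluster differed between lists. In preadipocytes all of Cyp2a12 was inside a LAD, and in adipocytes none of it, with 20.4% of its body in LADs with Tmem120a shRNA and 61.6% with Tmem120a/b shRNA. Cyp2b19, a P450 of the epidermis, had 85.8% in preadipocytes, 0 in adipocytes and 100% in both knockdown lists, and with gaps under 50 kb closed it lay in LADs in adipocytes too (100%). Cyp2b10, the phenobarbital-inducible gene at the left edge, had 100%, 61.3%, 100% and 16.9%, and its start site lay inside by 0.875 kb in preadipocytes and outside by 11.2 kb in adipocytes. The knockdown values of Cyp2a12 were 0 in both lists with LADs of at least 100 kb and 100% in both with gaps under 50 kb closed. As deposited, the knockdown values of Cyp2b10 stood on either side of the adipocyte value, as those of 4 P450 genes in all did (4.44%, against 1.10% of all genes). Only genes whose body lies partly in adipocyte LADs can show this. Cyp2b13 had 100%, 76.1%, 72.7% and 100%, and Cyp2b9 had 100%, 100%, 64.4% and 9.51%. The rest of Cyp2b9 lay in gaps of 34.9 kb with Tmem120a shRNA and 33.7 kb with Tmem120a/b shRNA. Both are under 50 kb, so with such gaps closed it lies wholly in LADs in these lists too.

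The Cyp2d cluster of chromosome 15 (chr15:82200958-82624675), relatives of the human debrisoquine hydroxylase, holds 8 genes from Cyp2d22 to Cyp2d26 in 424 kb. LADs covered 90.5%, 73.7%, 79.2% and 85.0% of it. Cyp2d9, Cyp2d12 and Cyp2d34, in the middle, lay wholly in LADs in every list, and the genes of both ends varied. Cyp2d11 had 100% of its body in LADs in preadipocytes, 0 in adipocytes, 100% with Tmem120a shRNA and 0 with Tmem120a/b shRNA. Its neighbour Cyp2d10 had 100%, 0, 0 and 94.4%. Cyp2d40, at the other end, had 100%, 0, 0 and 100%. The adjacent copies Cyp2d11 and Cyp2d10 thus lay in LADs in preadipocytes and outside in adipocytes. Their values in the knockdowns rested on short LADs, of 24.2 kb over Cyp2d11 with Tmem120a shRNA and of 17.1 kb over Cyp2d10 with Tmem120a/b shRNA. With LADs of at least 30 kb both genes had 0 in both knockdown lists, and with gaps under 50 kb closed Cyp2d10 and Cyp2d40 had 100% with Tmem120a shRNA.

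Cyp2d22 and Cyp2d26, the outermost genes, met a LAD with Tmem120a shRNA alone, by 36.9% and 59.7% of their bodies, and with LADs of at least 30 kb by 0. With Tmem120a shRNA the cluster lay in 5 LADs, of 24.2, 202, 36.8, 54.4 and 18.7 kb in that order along the chromosome.

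The Cyp4f cluster of chromosome 17 (chr17:32605404-33084347) was largely outside LADs. Its 7 genes, from Cyp4f39 to Cyp4f13, encode hydroxylases of fatty acids and eicosanoids and share the region with 4 zinc finger genes and Gm9705. Coverage was 6.89% in preadipocytes, 0 in adipocytes, 0 with Tmem120a shRNA and 27.8% with Tmem120a/b shRNA. Cyp4f15 met a LAD in preadipocytes with 17.6% of its length (0 with LADs of at least 30 kb), and no other Cyp4f gene of the cluster met a LAD in any list. The 2 LADs of the double knockdown, of 103 and 29.6 kb, lay between P450 genes, and the nearer start site, that of Cyp4f40, was 1.07 kb outside. The last cluster, Cyp1a2, Cyp1a1 and Cyp11a1 on chromosome 9, met no LAD in any list.

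**Figure D4:**
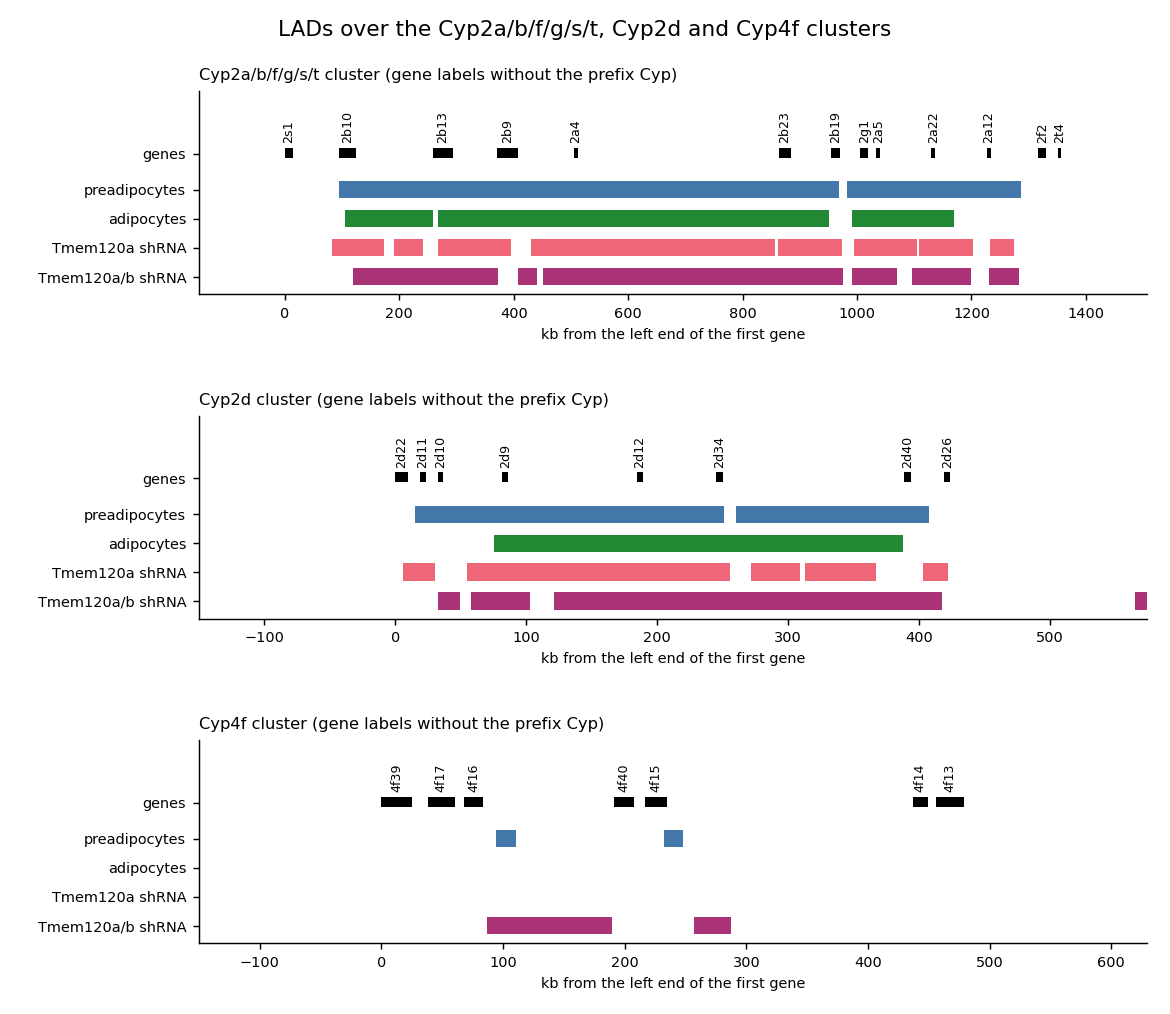
Coloured bars are LADs and black bars are genes, along the distance in kb from the left end of the first gene, for the clusters on chromosomes 7, 15 and 17. In the Cyp2d cluster the adipocyte LAD is shorter at both ends than the preadipocyte LADs, which leaves out Cyp2d11, Cyp2d10 and Cyp2d40.

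The second question was which P450 genes changed between preadipocytes and adipocytes. LADs were met in preadipocytes and not in adipocytes by 7 genes (7.78%, against 4.81% of all genes), which were Cyp2b19, Cyp2a12, Cyp2r1, Cyp2d11, Cyp2d10, Cyp2d40 and Cyp4f15. The reverse held for Cyp3a13 alone (1.11%, against 1.88%). Only genes in LADs of preadipocytes can leave them. Among such genes 7 of 54 P450 genes did so, against 1076 of 5865 genes in all, which is a smaller share. In the deposited list of 2021 released regions, which lie in LADs of preadipocytes and not of adipocytes, regions met 8 P450 gene bodies (8.89%, against 5.76%) and held 6 start sites (6.67%, against 3.51%). Released regions too can meet only genes in LADs of preadipocytes. The larger shares are therefore not read as more release among P450 genes. The 1808 recruited regions, in LADs of adipocytes alone, met 3 bodies (3.33%, against 3.08%), those of Cyp7b1, Cyp4x1 and Cyp3a13, and held 1 start site (1.11%, against 1.49%), that of Cyp3a13. With an overlap of at least 50% of the body, or with regions of at least 30 kb, released regions met 5 P450 genes and recruited regions 1. The genes in LADs of adipocytes and not of preadipocytes numbered 0 with LADs of at least 30 kb and 2 at 50% of the body.

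The longest released region over a P450 gene covered Cyp2a12 (chr7:27756409-27874356, 118 kb), and held 388 GATC sites. The second covered Cyp2r1, the microsomal vitamin D hydroxylase of the first step of activation (chr7:121650888-121748778, 97.9 kb), and reached into Pde3b, a phosphodiesterase gene of adipocytes. Cyp2d11 and Cyp2d10 shared a region of 60.5 kb (chr15:82215945-82276481). The borders of these regions are shown because they are the positions at which the 2 states part. Each window has 60 bases of the plus strand of mm9 (NCBIM37), with the GATC site of the border in capitals. The left border of the Cyp2r1 region lies in an intron of Pde3b, and the other 5 lie between genes.
Cyp2a12 left border (chr7:27756378-27756437): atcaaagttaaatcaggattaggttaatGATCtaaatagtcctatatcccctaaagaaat
Cyp2a12 right border (chr7:27874326-27874385): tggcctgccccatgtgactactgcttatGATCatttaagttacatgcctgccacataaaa
Cyp2r1 left border (chr7:121650857-121650916): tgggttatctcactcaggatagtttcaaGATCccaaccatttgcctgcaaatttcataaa
Cyp2r1 right border (chr7:121748748-121748807): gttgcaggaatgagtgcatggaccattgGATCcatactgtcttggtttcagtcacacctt
Cyp2d11 and Cyp2d10 left border (chr15:82215914-82215973): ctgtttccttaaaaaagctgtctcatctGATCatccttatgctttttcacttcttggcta
Cyp2d11 and Cyp2d10 right border (chr15:82276451-82276510): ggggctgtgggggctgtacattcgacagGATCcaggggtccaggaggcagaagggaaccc

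The other released regions were shorter. They were 32.2 kb within Cyp19a1 (chr9:54018517-54050697), with both borders in introns, 19.8 kb over Cyp2d40 (chr15:82588772-82608532), 15.9 kb from an exon of Cyp4f15 onwards (chr17:32837184-32853084) and 8.58 kb over the start of Cyp2b13 (chr7:26846220-26854797). Cyp2b19 met no deposited region, although the piece of 16.9 kb in LADs of preadipocytes alone that covered 85.8% of its body was longer than the shortest released region, of 8.04 kb. The rule by which pieces became regions is not given in full in the sources used here.

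The 3 genes that met recruited regions were of different families. The region of Cyp7b1, an oxysterol hydroxylase of the alternative bile acid pathway, was 74.4 kb long (chr3:17992036-18066446), with both borders in introns, and covered 43.4% of the body. That of Cyp3a13, a P450 on chromosome 5 outside the Cyp3a cluster, was 23.9 kb long (chr5:138348199-138372142), ran from an intron past the start site and covered 51.1% of the body. The region of Cyp4x1 was 19.5 kb long (chr4:114768101-114787621) and covered 31.1%. For the first 2 the border sequences are given in the same form, with GATC in capitals. Of these 4 borders 3 lie in introns, and the right border of the Cyp3a13 region lies between genes.
Cyp7b1 left border (chr3:17992005-17992064): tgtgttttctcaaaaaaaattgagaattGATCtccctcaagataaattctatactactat
Cyp7b1 right border (chr3:18066416-18066475): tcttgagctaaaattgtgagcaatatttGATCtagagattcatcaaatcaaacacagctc
Cyp3a13 left border (chr5:138348168-138348227): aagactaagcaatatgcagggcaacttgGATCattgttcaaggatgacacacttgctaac
Cyp3a13 right border (chr5:138372112-138372171): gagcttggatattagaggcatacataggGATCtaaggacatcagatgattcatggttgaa

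The third question was where the changed genes stood in the knockdowns. Of the 7 P450 genes in LADs of preadipocytes and not of adipocytes, 3 met a LAD with Tmem120a shRNA (42.9%, against 41.4% of the 1076 such genes in all) and 4 with Tmem120a/b shRNA (57.1%, against 55.5%). Cyp2b19 and Cyp2a12 did so in both, and Cyp2r1 and Cyp4f15 in neither. These shares lay close to those of all genes with the same change. Cyp3a13, in LADs of adipocytes and not of preadipocytes, met a LAD in both knockdown lists. Of the 420 such genes in all, 60.5% did so with Tmem120a shRNA and 57.1% with Tmem120a/b shRNA.

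By region the values were graded. The Cyp2a12 region was in LADs for 64.1% of its length with Tmem120a shRNA and 71.4% with Tmem120a/b shRNA, and the Cyp2d11 and Cyp2d10 region for 59.5% and 57.2%. The Cyp19a1 region was in LADs for 100% and 73.3%. The Cyp2r1 region was outside, with 6.34% and 0, as was the Cyp4f15 region, with 0 in both. The small regions of Cyp2b13 (0 and 100%) and Cyp2d40 (21.3% and 100%) were in LADs with Tmem120a/b shRNA and largely outside with Tmem120a shRNA. Recruited regions held 0 and 16.9% for Cyp7b1, 25.3% and 11.5% for Cyp4x1, and 75.2% and 72.3% for Cyp3a13. Cyp7b1 and Cyp4x1 regions were therefore mostly outside LADs in both knockdown lists, and the Cyp3a13 region mostly inside.

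Some P450 genes differed in a knockdown from a state that preadipocytes and adipocytes shared, counting any overlap as in a LAD. Cyp7b1 is among them by this rule alone, since 11.7% of its body lay in LADs in preadipocytes and 55.1% in adipocytes. Cyp11b1, Cyp11b2, Cyp2d22 and Cyp2d26 met a LAD with Tmem120a shRNA and not in preadipocytes or adipocytes (4.44%, against 4.14%), and no P450 gene did so with Tmem120a/b shRNA (0 of 90, against 5.69%). Cyp7b1 and Cyp2j9 met LADs in preadipocytes and adipocytes and none with Tmem120a shRNA (2.22%, against 1.21%), and no gene had this pattern with Tmem120a/b shRNA (0 of 90, against 1.30%). Only genes in LADs of both lists can be lost, and only genes in neither can be gained. P450 genes met LADs more often than genes at large. These shares therefore do not compare how readily genes were lost or gained. The counts also depended on the setting. Genes lost with Tmem120a shRNA numbered 5 with LADs of at least 100 kb and 1 at 50% of the body, and genes lost with Tmem120a/b shRNA numbered 1 with LADs of at least 30 kb, 8 with at least 100 kb and 5 at 50% of the body. The 4 genes met with Tmem120a shRNA alone became 0 with LADs of at least 100 kb. Shares of all genes are given at the reported setting alone, so counts at other settings are not set against genes at large.

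Distances from start sites to the nearest border were compared between lists. The median distance of a start site inside a LAD to the nearest border stood at 117 kb in preadipocytes, at 120.4 kb for adipocytes, 42.0 kb with Tmem120a shRNA and 60.3 kb with Tmem120a/b shRNA. For all genes these medians were 114, 169.8, 79.9 and 61.5 kb. For P450 start sites outside LADs the medians were 172, 630.4, 285 and 95.9 kb, and for all genes 374, 521, 240.5 and 209 kb. Start sites of P450 genes within 30 kb of a border, on either side, numbered 18, 14, 30 and 26 (20%, 15.6%, 33.3% and 28.9%, against 12.8%, 8.34%, 15.7% and 18.4% of all genes). The lists themselves held 3914, 2542, 5723 and 6971 LADs, and the part of this number in the distances was not tested.

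Genes listed for steroids, bile acids, vitamin D and retinoic acid numbered 18, of which 1 lay in a cluster. The lists were set by symbol and are not complete for these substrates. No list put 13 of them in a LAD (72.2%, against 63.7% of all protein-coding genes). Of the 6 genes of steroid hormone synthesis, Cyp11a1, Cyp17a1 and Cyp21a1 met no LAD in any list. Cyp19a1, the aromatase that makes oestrogens from androgens (chr9:54013744-54115917), had 100% of its body in LADs in preadipocytes, 68.5% in adipocytes, 100% with Tmem120a shRNA and 73.4% with Tmem120a/b shRNA, and its start site lay inside in all 4. With LADs of at least 100 kb its share in adipocytes was 4.67%, and with gaps under 50 kb closed it was 100% in all 4 lists. Cyp11b1 and Cyp11b2, adjacent genes for the last steps of corticosterone and aldosterone synthesis, lay wholly in a LAD of 42.7 kb with Tmem120a shRNA and in none in the other lists, and with LADs of at least 100 kb in none at all. Their start sites lay 18.6 and 33.3 kb from the nearest LAD in preadipocytes, and 437 and 452 kb in adipocytes.

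Among the 6 genes of cholesterol and bile acid turnover, Cyp7a1, the rate-limiting enzyme of bile acid synthesis, lay 81.4 kb from the nearest LAD in preadipocytes and 201 kb in adipocytes, and met none. Cyp8b1, Cyp27a1, Cyp39a1 and Cyp46a1 likewise met no LAD in any list. Cyp7b1, the longest P450 gene at 171 kb (chr3:17971950-18143338), had 11.7% of its body in LADs in preadipocytes, 55.1% in adipocytes, 0 with Tmem120a shRNA and 40.4% with Tmem120a/b shRNA (0 with LADs of at least 100 kb). Its start site lay outside in every list, by 36.0, 76.9, 79.4 and 35.6 kb, so the body and not the start differed.

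Of the vitamin D genes, Cyp2r1 (chr7:121693680-121706486) lay wholly in a LAD in preadipocytes, with its start 55.6 kb inside. In the other lists it was outside, by 42.3 kb in adipocytes, 36.1 kb with Tmem120a shRNA and 56.4 kb with Tmem120a/b shRNA. All 3 adipocyte lists thus placed Cyp2r1 outside. Cyp24a1, which inactivates the hormone, and Cyp27b1, which makes it, met no LAD. The retinoic acid hydroxylases Cyp26a1, Cyp26b1 and Cyp26c1 met none either.

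Other genes outside clusters included Cyp2e1, the ethanol-inducible P450, which lay wholly in LADs in all 4 lists, with its start 30.4, 14.2, 26.6 and 75.6 kb inside. Cyp3a13 (chr5:138334160-138362847) had 0, 51.1%, 30.3% and 100% of its body in LADs, where the adipocyte value was 0 with LADs of at least 30 kb and all 4 were 0 with LADs of at least 100 kb. Its start site was outside by 13.9 kb in preadipocytes and inside by 9.30, 8.70 and 2.65 kb in the other lists. The epoxygenase Cyp2c44 lay 574 kb from the nearest LAD in preadipocytes and met none, unlike the Cyp2j genes. Cyp1b1, Cyp2u1, Cyp2w1, Cyp4v3, Cyp4f18 and Cyp20a1 met none in any list. In all, genes in LADs in all 4 lists made up 32 of the 48 genes of drug and foreign compound metabolism, 6 of the 8 epoxygenases, 6 of the 15 Cyp4 genes and 1 of the 18 genes for steroids, bile acids, vitamin D and retinoic acid (66.7%, 75%, 40% and 5.56%, against 19.3% of all genes). Clusters, whose genes share LADs, held 43, 7, 13 and 1 of these genes. The 8 epoxygenases are the Cyp2j genes and Cyp2c44. Genes of the Cyp2c cluster were counted under drug metabolism, although their enzymes also oxidise arachidonic acid. Roles were set by symbol, so every gene of this cluster was counted there whatever its other substrates.

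**Figure D5:**
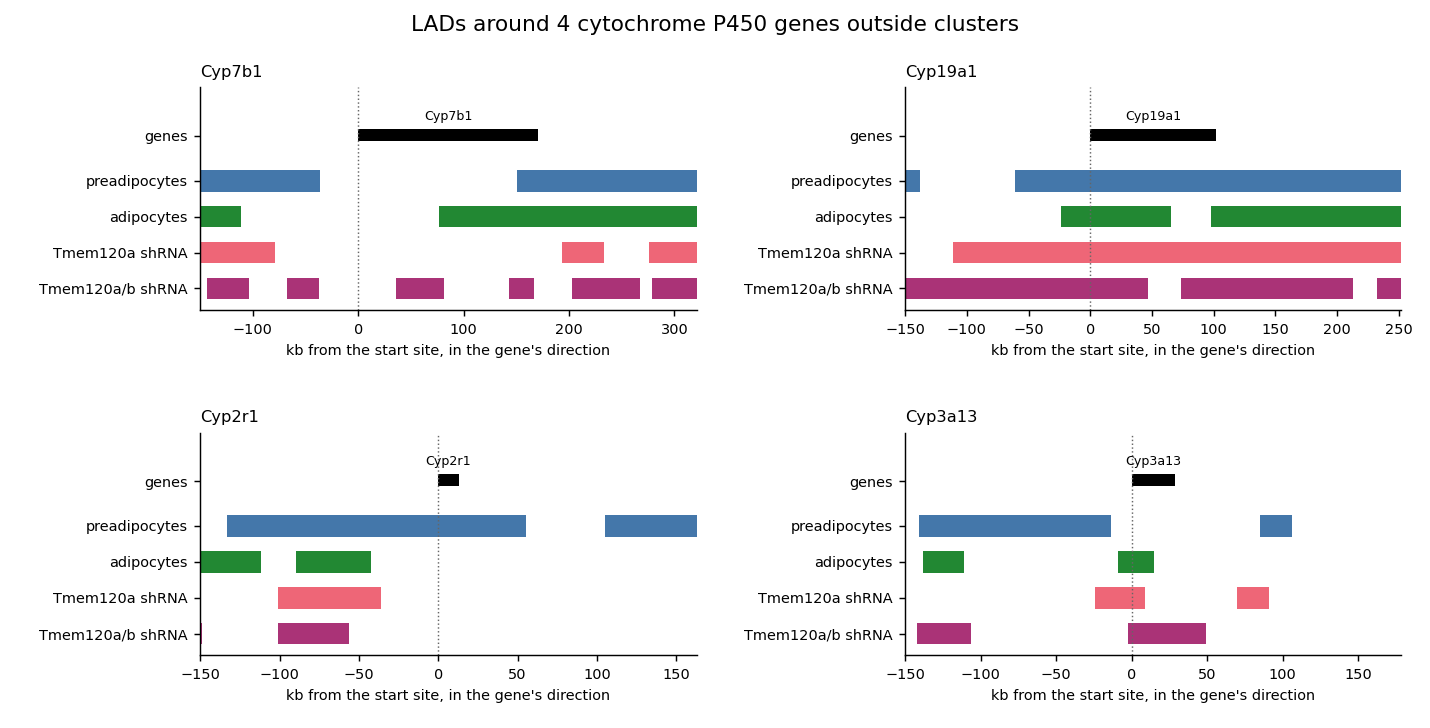
Coloured bars are LADs of the 4 lists and the black bar is the gene, along the distance in kb from the start site in the direction of transcription, for Cyp7b1, Cyp19a1, Cyp2r1 and Cyp3a13. The start site of Cyp2r1 lies in a LAD in preadipocytes alone, that of Cyp3a13 in every list but preadipocytes, that of Cyp19a1 in all 4 and that of Cyp7b1 in none.

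Genes that work with P450s were looked up in the same lists, in which 26.2%, 23.3%, 27.5% and 29.5% of all protein-coding genes met a LAD. None of the 6 redox partners, which were Por, Cyb5a, Cyb5b, Cyb5r3, Fdx1 and Fdxr, met a LAD in any list, nor did the P450 genes with other symbols, Cyp51, Tbxas1 and Ptgis. Of 12 receptors and partners that control P450 genes, 1 met a LAD in preadipocytes, 1 in adipocytes, 3 with Tmem120a shRNA and 3 with Tmem120a/b shRNA. Nr5a2, a regulator of Cyp7a1, had 100%, 100%, 57.5% and 51.6% of its body in LADs. The bile acid receptor Nr1h4 had 0, 0, 29.7% and 55.4%. Ahr, the receptor for dioxin that induces Cyp1a1, had 12.6% with Tmem120a shRNA alone, and Ppara had 39.3% with Tmem120a/b shRNA alone.

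Sequence features outside the rule also differed between P450 genes by LAD state. The 45 genes in LADs in all 4 lists had a median GC content of 41.3% and a median length of 33.4 kb, and the 31 genes in none had 47.8% and 13.8 kb. The 14 genes with other patterns had 46.8% and 8.73 kb. Among all protein-coding genes the medians of GC content were 41.5% for genes in LADs in all 4 lists and 47.8% for genes in none, close to the P450 values. Lengths ran the other way, at 6.90 and 15.6 kb. GATC sites, which set the resolution of the method, stood at a median of 2.92 per kb in the first P450 group, 2.59 in the second and 2.46 in the third. Each P450 gene held between 6 and 427 of them.

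Tandem copies are alike in sequence, which bears on how reads can be placed. The median coding-sequence identity of a gene to its closest relative in the cluster was 96.1% in the Cyp2c cluster, 94.9% in the Cyp3a cluster, 91.8% in the Cyp2d cluster and 88.8% in the Cyp2a/b/f/g/s/t cluster. The closest copies were Cyp2a4 and Cyp2a5, at 98.5%. Cyp2a12 and its closest copy Cyp2a22 shared 97.0%, and Cyp2d11 and Cyp2d10 shared 94.7%, and in the last 2 pairs the LAD shares of the copies differed in at least 1 list. Other close copies did not differ, since Cyp2a4 and Cyp2a5, Cyp3a25 and Cyp3a59 (97.5%), and Cyp4a10 and Cyp4a32 (97.2%) lay wholly in LADs in every list. How reads that fit several copies were treated is not given in the sources used here, and its part in these values was not tested.

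Promoters were taken from RefSeq (GRCm38.p6) for the 70 P450 genes with an entry, as the 250 bases before the start. The sequence TATAAA was found on either strand in 26 of them (37.1%, against 13.0% of all 27025 promoters), in 17 of the 37 whose genes lay in LADs in all 4 lists and in 4 of the 23 whose genes lay in none. GATC stood in 24 of 70 (34.3%, against 42.0%). AGGTCA, the core site of many nuclear receptors, stood on either strand in 16 of 70 (22.9%, against 13.8%), in 13 of the 37 and in 2 of the 23. Shares of all promoters by LAD state are not given, so the split by LAD state is not set against genes at large. Tandem copies can have similar promoters and are not independent. GATC reads the same on both strands and cannot overlap the other motifs. The promoters of Cyp2d10 and Cyp2d11 are shown because these adjacent copies shared a released region. They shared 85.5% of aligned bases, with 30 gap bases. Capitals mark GATC and TATAAA on either strand, and both sequences read in the direction of the gene, on the minus strand of GRCm38.p6.
Cyp2d10 promoter (chr15:82407195-82407444): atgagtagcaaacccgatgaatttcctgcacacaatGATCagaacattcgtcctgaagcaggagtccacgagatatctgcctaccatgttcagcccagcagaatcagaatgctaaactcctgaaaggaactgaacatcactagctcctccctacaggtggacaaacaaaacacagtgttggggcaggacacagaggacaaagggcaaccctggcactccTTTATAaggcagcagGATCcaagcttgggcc
Cyp2d11 promoter (chr15:82394023-82394272): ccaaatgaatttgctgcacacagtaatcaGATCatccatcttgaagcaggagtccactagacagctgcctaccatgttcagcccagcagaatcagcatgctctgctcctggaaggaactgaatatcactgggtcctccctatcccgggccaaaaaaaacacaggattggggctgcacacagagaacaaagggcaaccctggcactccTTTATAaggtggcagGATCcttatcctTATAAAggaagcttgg

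Both promoters held 2 GATC sites. The promoters of the genes that changed outside clusters follow, in the same form, and belong to the start sites that left (Cyp2r1) and entered (Cyp3a13) LADs in adipocytes.
Cyp2r1 promoter (chr7:114562973-114563222): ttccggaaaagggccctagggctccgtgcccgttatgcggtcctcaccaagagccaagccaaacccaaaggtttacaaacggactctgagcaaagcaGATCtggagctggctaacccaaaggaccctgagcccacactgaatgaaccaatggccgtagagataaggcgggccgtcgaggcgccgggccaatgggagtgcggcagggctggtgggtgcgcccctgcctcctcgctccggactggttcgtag
Cyp3a13 promoter (chr5:137921620-137921869): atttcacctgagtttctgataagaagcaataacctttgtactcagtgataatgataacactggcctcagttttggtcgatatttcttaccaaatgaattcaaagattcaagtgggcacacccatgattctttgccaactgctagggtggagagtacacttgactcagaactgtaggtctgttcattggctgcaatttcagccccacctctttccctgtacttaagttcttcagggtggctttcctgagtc

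The Cyp2r1 promoter held 1 GATC site and no TATAAA. That of Cyp3a13 held neither. A match to these letters is a description of the window and not a site of binding.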

How the data were processed

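The authors mapped the DamID reads to mm9 with BWA, took the log2 ratio of LaminB1-Dam to Dam per DpnI fragment and called LADs by segmentation with DNAcopy. The deposited lists hold positions only, counted from 0, and no unit of signal. Starts are given here counting from 1. The aligner settings and the depth are not given in the sources used here.

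Gene positions came from GENCODE vM1 on NCBIM37, the same assembly, at which 96.5% to 98.8% of LAD borders per list fell on GATC. Genes, start sites (the 5′ end of the gene) and clusters (neighbours at most 500 kb apart, 3 or more genes) were intersected with the lists in Python 3.11.15, any overlap counting. Coding sequences were aligned with Biopython 1.88 and plots drawn with matplotlib 3.10.9. All 4000 simulated overlaps checked against a base-by-base count were right. With 1 library of each kind per condition no test was made. All protein-coding genes serve as background.

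The members, gene lists, roles and settings were chosen with earlier results of these data known. Named were genes whose state differed between preadipocytes and adipocytes or that met a released or recruited region, genes lost or gained in a knockdown, the first and last gene of each cluster and role genes outside clusters. Other genes were named after their values were seen. Alternatives were other overlaps, LAD lengths, gap closures, start windows, cluster gaps and, added after seeing the data, symbols with a suffix.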

Additional observations from a re-analysis of the deposited data

Results flagged for a closer look

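In 4 P450 genes the knockdown lists departed from the adipocyte list in opposite directions (4.44%, against 1.10% of all protein-coding genes). The difference was not tested, since each list rests on 1 pair of libraries. For Cyp3a13, 51.1% of the body lay in LADs in adipocytes, 30.3% with Tmem120a shRNA and 100% with Tmem120a/b shRNA, a difference of 69.7 percentage points between the knockdowns. Cyp3a57, at the edge of the Cyp3a cluster, had 91.1%, 51.8% and 100%, a difference of 48.2 points. Cyp2b13 had 76.1%, 72.7% and 100%, a difference of 27.3 points. Cyp2b10 went the other way, with 61.3%, 100% and 16.9%, a difference of -83.1 points. The directions depended on the setting. With LADs of at least 30 kb Cyp3a13 had 0 in adipocytes, so that both knockdown values stood above it, and with LADs of at least 100 kb it had 0 in all 4 lists. With LADs of at least 100 kb Cyp2b10 had 0 with Tmem120a shRNA, so that both stood below the adipocyte value. With gaps under 50 kb closed Cyp2b13 had 100% in all 4 lists and Cyp3a57 had 100%, 51.8% and 100%. All 4 genes have a LAD border inside or near the body in at least 1 list.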

How the results depend on the processing

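Of 181 summary values recomputed under the alternatives, 160 stayed within 1.5 times the value reported, and the counts of genes in LADs in each list, in all 4 and in none were among them under every alternative tried. The order of the lists was not kept: P450 gene bodies in LADs numbered 54, 48, 53 and 52 in preadipocytes, adipocytes, Tmem120a shRNA and Tmem120a/b shRNA as reported, 53, 46, 43 and 41 with LADs of at least 100 kb, and 52, 48, 50 and 46 at 50% of the body. The small counts moved. For P450 genes in LADs of adipocytes and not preadipocytes (1 as reported), LADs of at least 30 kb and of at least 100 kb gave 0, as they did for their number with Tmem120a shRNA and with Tmem120a/b shRNA, and an overlap of at least 50% of the body gave 2, of which 0 lay in LADs of the Tmem120a knockdown. Genes in LADs of a knockdown alone numbered 0 instead of 4 with LADs of at least 100 kb. Genes in LADs of preadipocytes and adipocytes and lost with Tmem120a shRNA numbered 2 as reported, 5 with LADs of at least 100 kb and 1 at 50% of the body, and those lost with Tmem120a/b shRNA numbered 0, then 1 with LADs of at least 30 kb, 8 with at least 100 kb and 5 at 50% of the body. Released regions met 8 genes as reported, 5 at 50% of the body and 5 with regions of at least 30 kb. Recruited regions met 3, then 1 under each of these and 1 by start site. With LADs of at least 100 kb the Cyp2d span in LADs with Tmem120a shRNA was 47.6% instead of 79.2%, and the Cyp4f span in preadipocytes 0 instead of 6.89%. Of 228 values for single genes 29 moved by more. No paired analysis was possible because each condition has 1 library of each kind, and no replicate could be left out. The unknown depth limits every border. The cause of these shifts was not tested. Shares of all genes are not given under the alternatives, so the moved counts are not set against genes at large.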

Other observations

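Protein-coding P450 symbols with an added letter or suffix, which the rule leaves out, numbered 7. Cyp2j7-ps, Cyp4a12a, Cyp4a12b, Cyp3a41a, Cyp3a41b and Cyp2d37-ps lay wholly in LADs in all 4 lists, inside the clusters of their families, and Cyp2ab1 met no LAD in any list.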
